A study of Mus musculus with 33 samples.

Results

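The T-box and Hand genes encode transcription factors that pattern the limb, the lateral plate and the somites, and 10 of them were followed here through a mouse culture system for tendon and fibrocartilage. The genes were Tbx1, Tbx2, Tbx3, Tbx4, Tbx5, Tbx15, Tbx18, Tbx20, Hand1 and Hand2. They were taken by gene symbol, from a list drawn up with earlier results of these data known. Of these, 9 were among the 17120 genes of the count table, and Tbx5 was not analysed here. The RNA came from mouse embryonic stem cells carrying a ScxGFP reporter, which were grown as embryoid bodies with the BMP inhibitor LDN-193189 and then with the Wnt agonist CHIR to paraxial mesoderm (PM). The methods of the study also describe AGN 193109, an inverse agonist of retinoic acid receptors (RAR), in the PM step, and the labels do not say whether these PM cultures received it. After D6, TGFβ1, FGF2 and the smoothened agonist SAG were given to all cultures, with AGN 193109 in the fibrocartilage condition or the RARγ agonist CD1530 in the tendon condition. The ligands were not used at equal concentrations. PM was collected on D6, and both conditions after 0.25, 0.75, 1.5, 2.5 and 4 days of induction, called here by the day of culture (D6.25 and D6.75 on the first day, then D7.5, D8.5 and lastly D10). Each of the 11 groups held 3 libraries. By their labels, PM libraries came from embryoid bodies and all others from monolayers. Time after D6, the change of medium and the change of culture form therefore cannot be told apart in any comparison with PM.

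T-box factors share a DNA-binding domain, the T-box, and act as activators or repressors according to the family member. Tbx2 and Tbx3 are closely related repressors of the limb margins, the heart and other organs, Tbx4 and Tbx5 drive outgrowth of the hindlimb and forelimb buds, and Tbx15 and Tbx18 act in limb and somite mesenchyme. Hand1 and Hand2 are basic helix-loop-helix factors of the lateral plate, the heart and the posterior limb bud, where Hand2 acts upstream of Shh. Retinoic acid signals through nuclear receptors that bind DNA, and an inverse agonist such as AGN 193109 holds these receptors in a repressive state.

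Total counts per library were between 17.1 M and 22.8 M, apart from 38.1 M in AGN 193109 at D8.5 replicate 1. CD1530 replicate 1 at D6.75 stood apart from its group, with a chi-square per gene of 20.6 and 21.9 against its partners where every other pair of replicates had at most 4.87. Levels are given as CPM (counts scaled to the library total) after TMM scaling, with the SD over 3 libraries. As a check of the labels, Tbx6 and Msgn1, marks of presomitic mesoderm, stood at 9.56 ± 0.772 CPM and 3.38 ± 0.607 CPM in PM. At D10, Scx, the tendon factor, reached 858 ± 17.4 CPM with CD1530 and 1223 ± 27.8 CPM with AGN 193109, and Col2a1, the cartilage collagen, 145 ± 4.38 CPM and 2497 ± 69.4 CPM. The retinoid targets Rarb and Cyp26a1 stood at 56.2 ± 3.57 CPM and 169 ± 5.76 CPM with CD1530 at D10, against 1.12 ± 0.488 CPM and 2.45 ± 0.263 CPM with AGN 193109. The RNA is from bulk cultures, in which fewer cells of a type and less RNA per cell cannot be told apart.

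The genes lie apart in the genome except for Tbx2 and Tbx4. On GRCm38, GENCODE M21 places Tbx2 at chr11:85832551-85841948 and Tbx4 at chr11:85886422-85916097, both on the plus strand and 44474 bases apart. Tbx3 is at chr5:119670669-119684724 on the plus strand, Tbx15 at chr3:99240381-99354259 on the plus strand, and Tbx1 at chr16:18580979-18590671 on the minus strand. Tbx18 at chr9:87702800-87731260 and Tbx20 at chr9:24718138-24774303 share chromosome 9 on the minus strand. Hand1 is at chr11:57828705-57832818 on the minus strand, and Hand2 at chr8:57320983-57324633 on the plus strand. Tbx3, Tbx15, Tbx18 and Hand2 each overlap 1 annotated gene on the opposite strand (Tbx3os1, Gm43120, D030062O11Rik and Hand2os1), and the strand setting of the read counting is not stated, so that reads from either partner may be in these counts. Family members could share whole reads only where their transcripts are identical over the length of a read. The longest run of identical bases between transcripts of any pair was 32 bases, a repeat common to Tbx4 and Tbx20. This is shorter than the reads that the methods of the study describe. The pair Tbx15 and Tbx18 shared 23 coding bases, which lie at chr3:99314754-99314776 and chr9:87724441-87724463 and read, in the direction of transcription:
Tbx15 and Tbx18: catagctctaagtggatggtggc
All other pairs shared runs of at most 23 bases.

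RefSeq promoter windows on GRCm38.p6, from 250 bases before to 50 bases after a transcription start, were held for 5 of the 10 genes (Tbx1, Tbx4, Tbx18, Tbx20 and Hand2) in 6 windows. The 250 bases before the start are shown for Hand2, Tbx18 and Tbx1, the genes among the 5 that differed between the conditions at D10. Capitals mark the sequence CANNTG, the E-box that Hand and Twist factors can bind. The lines give Hand2 (chr8:57320733-57320982, plus strand), Tbx18 (chr9:87731261-87731510, minus strand) and Tbx1 (chr16:18590672-18590921, minus strand).
Hand2: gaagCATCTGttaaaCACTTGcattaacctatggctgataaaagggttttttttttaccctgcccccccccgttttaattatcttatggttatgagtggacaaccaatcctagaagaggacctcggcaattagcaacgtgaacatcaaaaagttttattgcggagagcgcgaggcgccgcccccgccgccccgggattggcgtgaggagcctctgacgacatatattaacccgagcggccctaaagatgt
Tbx18: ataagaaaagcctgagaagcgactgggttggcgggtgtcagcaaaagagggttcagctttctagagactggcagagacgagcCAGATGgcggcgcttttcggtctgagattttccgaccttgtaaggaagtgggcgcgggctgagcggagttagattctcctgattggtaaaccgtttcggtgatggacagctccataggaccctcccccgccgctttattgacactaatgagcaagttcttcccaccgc
Tbx1: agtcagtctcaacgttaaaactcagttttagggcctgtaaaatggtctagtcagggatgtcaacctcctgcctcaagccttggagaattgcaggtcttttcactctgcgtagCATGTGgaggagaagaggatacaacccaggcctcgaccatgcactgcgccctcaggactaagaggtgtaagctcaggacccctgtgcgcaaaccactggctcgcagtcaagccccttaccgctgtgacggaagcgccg
The Hand2 stretch holds 2 E-boxes and the other stretches 1 each, and 72.3% of the 32544 promoter windows of the mouse, which are 300 bases long, hold at least 1. Over its whole window of 300 bases Hand2 holds 2, Tbx18 holds 1 and this Tbx1 window holds 2, while the other Tbx1 window, which lies inside the gene, holds none. The core sequence bound by retinoic acid receptors, AGGTCA, was searched on both strands and found in none of the 6 windows, against 16.2% of all windows. AGGTGTGA, a core sequence of T-box factors, was likewise in none of the 6, against 1.28% of all. An absent match says only that these letters are not in these windows.

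**Figure D1:**
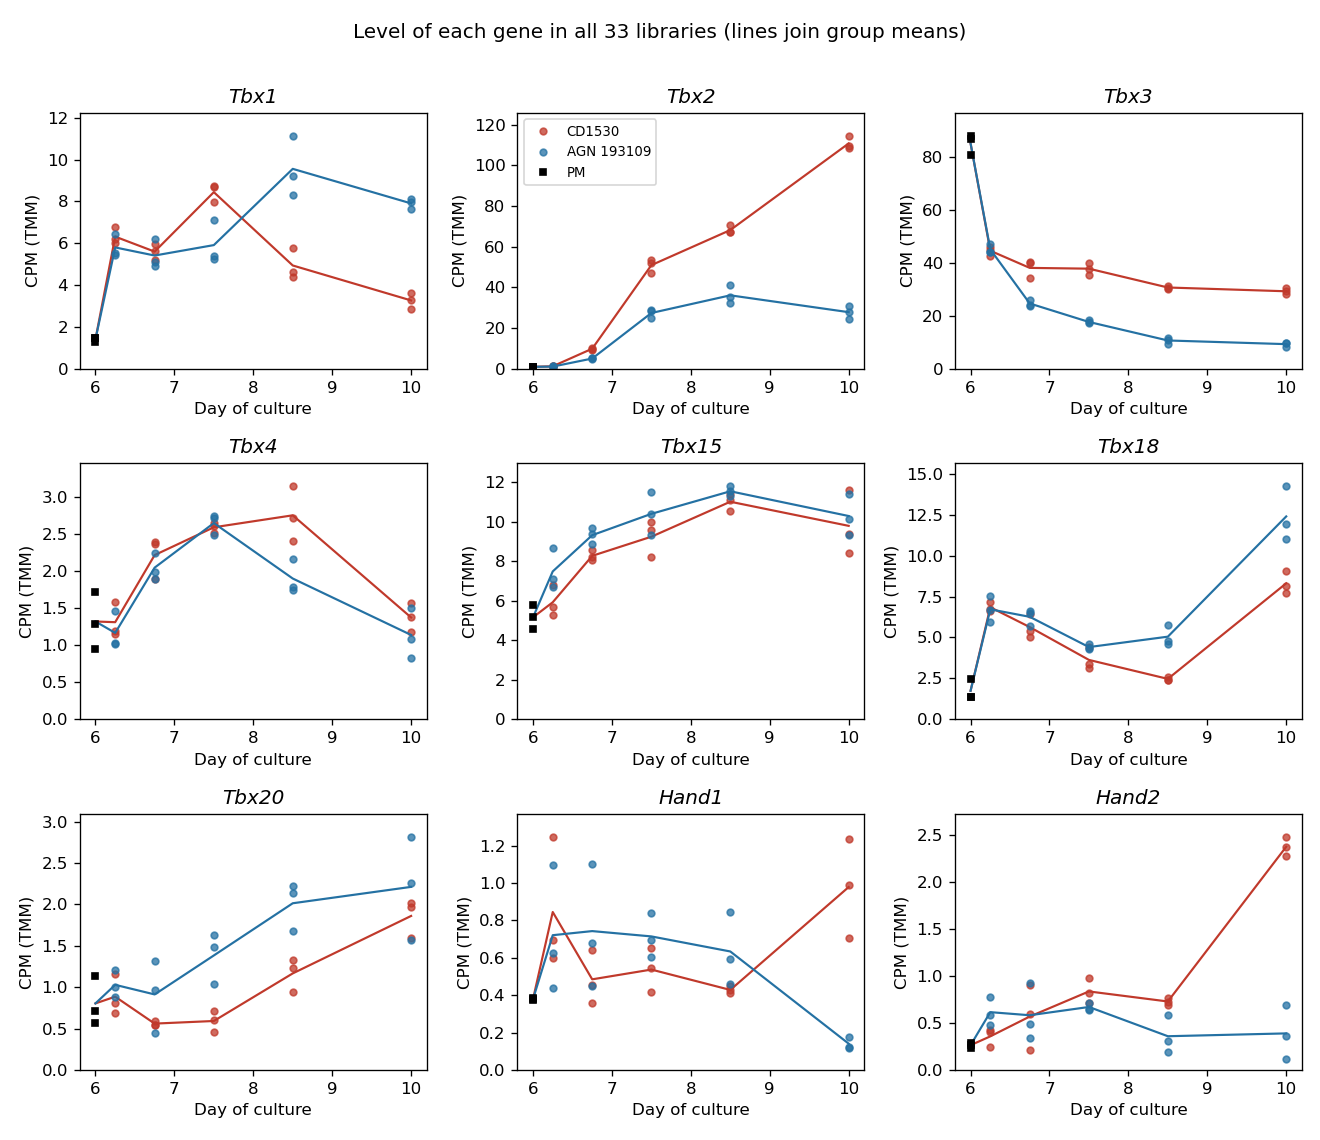
Level of each T-box and Hand gene (CPM after TMM scaling, linear axis from 0) in all 33 libraries against the day of culture, with lines through the group means and PM as black squares. Tbx2 climbed to 111 CPM with CD1530 and 27.9 CPM with AGN 193109, Tbx3 fell from 85.0 CPM, and Hand1 and Hand2 stayed below 3 CPM.

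The first question was when and how the genes came to differ between CD1530 and AGN 193109. At D6.25 none of the 9 genes was called (adjusted p under 0.05, edgeR's quasi-likelihood test with Benjamini-Hochberg adjustment over all genes), where 1.23% of all genes were called higher and 0.695% lower with CD1530. Only Tbx15 had an unadjusted p under 0.05 there. DESeq2 called 0, but it gave no adjusted p there for Tbx20, Hand1 and Hand2. Over all genes, the 329 calls of that day became 196 to 276 when 1 library of that day was left out, lowest without AGN 193109 replicate 3, and 804 of 16493 genes when only the compared groups were fitted. At D6.75, 2 genes were called, Tbx2 and Tbx3, both higher with CD1530 (7.94% of all genes were called higher and 10.0% lower). Over all genes, the 3076 calls of D6.75 became 1236 of 16663 genes with only the compared groups fitted and 3003 without CD1530 replicate 1. Without that library the log2 fold changes of Tbx2 and Tbx3 were 1.01 and 0.70, and both were called. At D7.5, 3 were higher (background 15.2%) and 1 lower (11.8%). At D8.5, 4 were higher (20.4%) and 3 lower (19.6%), and these 7 calls became 4 to 6 when 1 library was left out, with 4 without CD1530 replicate 3 or AGN 193109 replicate 2. Over all genes, 5909 to 6376 of 17120 were called with 1 library of D8.5 left out. At D10, 4 were higher, Tbx2, Tbx3, Hand1 and Hand2 (22.7%), and 2 were lower, Tbx1 and Tbx18 (24.0%). The median log2 fold change over the 9 genes was 0.28 at D10, beside -0.02 over all genes.

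**Figure D2:**
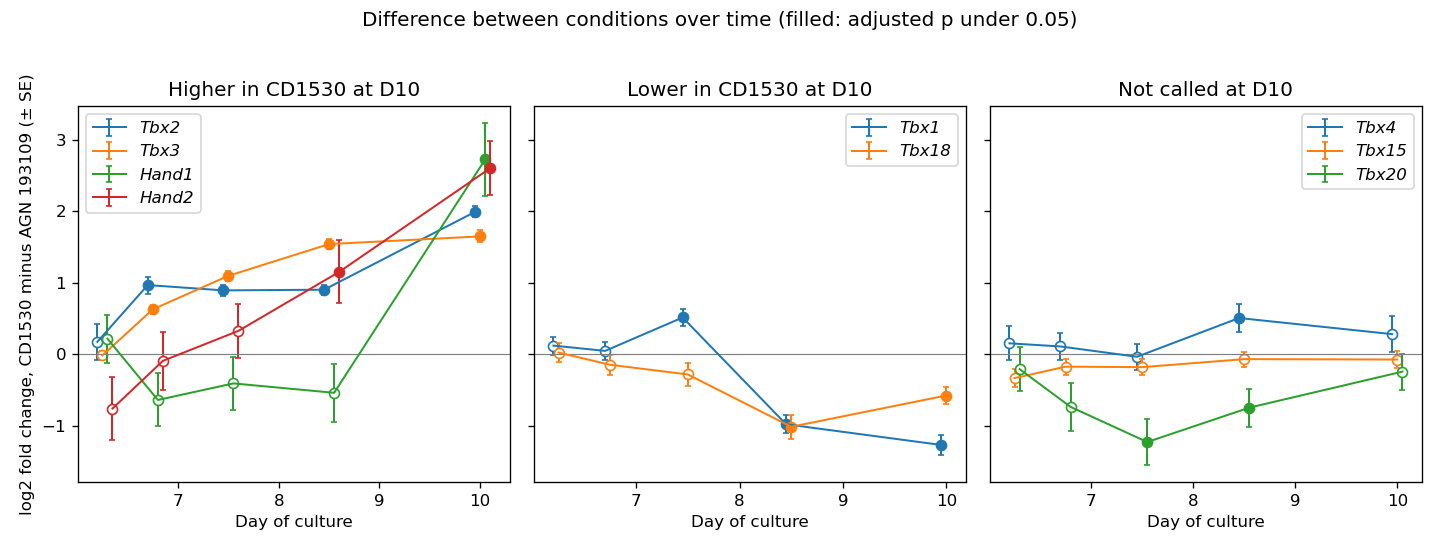
Log2 fold change of CD1530 minus AGN 193109 (± SE) at each of 5 days, in 3 panels by the call at D10, with filled points for an adjusted p under 0.05. Tbx2, Tbx3 and Hand2 reached 1.99, 1.65 and 2.60 at D10 and Tbx1 went from 0.51 at D7.5 to -1.27, while the D10 value of Hand1 was fitted against AGN 193109 libraries of at most 3 counts each and is no exact fold.

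Tbx2, a repressor known for holding back cyclin-dependent kinase inhibitors, showed the largest rise of the 9 genes between PM and D10. The PM libraries stood at 0.909, 0.992 and 1.13 CPM. With CD1530 the group means over the 5 days were 1.27, 9.91, 51.0, 68.2 and 111 CPM, and with AGN 193109 they were 1.12, 5.08, 27.5, 36.1 and 27.9 CPM, with no SD above 4.49 CPM. Neither condition was called against PM at D6.25, and the means of the conditions lay farthest apart at D10. The D10 libraries held 109.5, 108 and 115 CPM with CD1530 and 31.1, 28.2 and 24.4 CPM with AGN 193109, so that all CD1530 libraries lay above all AGN 193109 libraries. The log2 fold change between the conditions was 0.97 ± 0.12 (SE) at D6.75, 0.89 ± 0.08 at D7.5, 0.90 ± 0.07 at D8.5 and 1.99 ± 0.07 at D10 (adjusted p = 1.01e-24). From D8.5 to D10 Tbx2 rose with CD1530 (log2 fold change 0.70 ± 0.07, adjusted p = 9.17e-12) and fell by 0.39 ± 0.08 on the log2 scale with AGN 193109 (adjusted p = 3.84e-05). Against PM, the D10 libraries stood 109.4-fold higher with CD1530 and 27.5-fold higher with AGN 193109, and both comparisons used the same PM libraries. Of the genes within 250 kb of Tbx2, Bcas3 (log2 fold change 0.02, adjusted p = 0.818), Brip1 (-0.17, adjusted p = 0.0918) and Tbx4 (0.28, adjusted p = 0.389) were not called at D10. Other members had called neighbours. Over all members, 30 pairs of a member and a neighbour lay within 250 kb. At D10 the neighbour was called higher with CD1530 in 4 and lower in 7 (22.7% and 24.0% of all genes). Tbx2 itself, as a neighbour of Tbx4, is among the 4. Bcas3 and Brip1 are paired with both Tbx2 and Tbx4, so that the pairs are not all separate genes.

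Tbx3, the closest relative of Tbx2 and also a gene of pluripotent stem cells, went the opposite way in time. It stood at 87.8, 80.7 and 86.5 CPM in PM and at 44.5 ± 1.64 and 45.0 ± 1.81 CPM at D6.25 with CD1530 and AGN 193109, a fall in both conditions (log2 fold changes -0.93 ± 0.06 and -0.92 ± 0.06). The means of the following 4 days were 38.04, 37.7, 30.7 and 29.2 CPM with CD1530 and 24.6, 17.7, 10.7 and 9.31 CPM with AGN 193109. The lower means were those of AGN 193109 on each of these days. The D10 libraries were 29.2, 30.4 and 28.1 CPM against 8.38, 9.88 and 9.68 CPM, without overlap. The log2 fold change between the conditions widened from 0.63 ± 0.07 at D6.75 to 1.097 ± 0.07 at D7.5, 1.54 ± 0.08 at D8.5 and 1.65 ± 0.08 at D10 (adjusted p = 2.26e-20). Beside this, 5 of 6 genes listed for surface epithelium (Epcam, Krt8, Krt18, Trp63, Grhl2) had a summed level of 462 to 480 CPM in PM libraries. Krt5, also listed, was not analysed here. Whether these genes marked surface epithelium in these cultures was not tested. At D6.25, where Tbx3 was lower than in PM, the sum was 862 to 887 CPM with CD1530 and 921 to 947 CPM with AGN 193109. It was 568 to 633 against 971 to 1010.1 CPM at D6.75, 405 to 412 against 675 to 713 CPM at D7.5, 182 to 187 against 288 to 297 CPM at D8.5 and 183 to 188 against 194 to 199 CPM at D10. The sum was higher with AGN 193109 on each day, but its genes did not all go alike. At D10, 2 of the 5 were called higher with CD1530 and 3 lower (22.7% and 24.0% of all genes). Krt18 stood at 85.0 CPM with CD1530 against 49.4 CPM with AGN 193109, and Epcam at 42.7 against 92.0 CPM. The part of cells with these genes in the Tbx3 level was not tested.

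Tbx1, the T-box gene of the pharyngeal arches, was the member called in both directions between the conditions. All libraries stood higher at D6.25 than in PM, at 6.32 ± 0.393 CPM with CD1530 and 5.80 ± 0.564 CPM with AGN 193109 against 1.41 ± 0.105 CPM. At D7.5 the CD1530 libraries of 7.95, 8.71 and 8.67 CPM lay above the AGN 193109 libraries of 5.24, 5.39 and 7.11 CPM (log2 fold change 0.51 ± 0.12, adjusted p = 0.00128). At D8.5 the order was reversed, with 4.41, 4.63 and 5.78 CPM below 11.1, 9.22 and 8.31 CPM (-0.98 ± 0.13, adjusted p = 2.39e-08). At D10 it was 3.64, 3.30 and 2.87 CPM below 7.63, 7.95 and 8.14 CPM (-1.27 ± 0.14, adjusted p = 9.15e-10). The libraries of the conditions did not overlap on any of these 3 days, and at D6.75 the means were 5.60 and 5.41 CPM, which were not called different. With AGN 193109 the step from D8.5 to D10 was small (-0.30 ± 0.12, adjusted p = 0.0289) and was not called without AGN 193109 replicate 1 at D8.5 or replicate 1 or 2 at D10, nor by DESeq2 or its size factors (adjusted p up to 0.338).

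Tbx18, which maintains the front part of each somite and marks the epicardium and ureter mesenchyme, was higher than in PM at D6.25 and rose again after D8.5. PM libraries held 1.39, 2.46 and 1.40 CPM, and D6.25 libraries 6.85 ± 0.287 CPM with CD1530 and 6.72 ± 0.769 CPM with AGN 193109. The means of the next 3 days were 5.63, 3.63 and 2.48 CPM with CD1530 and 6.26, 4.42 and 5.05 CPM with AGN 193109. From D8.5 to D10 Tbx18 rose in both, to 8.13, 9.08 and 7.70 CPM with CD1530 (log2 fold change 1.74 ± 0.16) and to 11.003, 14.2 and 11.9 CPM with AGN 193109 (1.31 ± 0.13). CD1530 libraries lay below AGN 193109 libraries at D8.5 (-1.01 ± 0.17, adjusted p = 3.6e-06) and at D10 (-0.58 ± 0.12, adjusted p = 0.000167), with no overlap on either day. Its relative Tbx15, a gene of limb skeleton and dermis, differed little between the conditions. Tbx15 went from 5.16 ± 0.608 CPM in PM to libraries of 10.6 to 11.4 CPM with CD1530 and a mean of 11.5 ± 0.245 CPM with AGN 193109 at D8.5, and to 9.78 ± 1.62 and 10.3 ± 1.04 CPM at D10 with CD1530 and AGN 193109. It was called at none of the 5 days between the conditions, where its log2 fold changes ran from -0.33 ± 0.12 at D6.25 to -0.07 ± 0.11 at D8.5, and D10 against PM gave 0.92 ± 0.12 and 0.99 ± 0.13.

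Tbx4, the hindlimb gene, and Tbx20, a gene of heart muscle and valves, were low throughout. Tbx4 means ran from 1.14 to 2.75 CPM over the 11 groups, highest at D7.5 with AGN 193109 (2.65 ± 0.144 CPM) and at D8.5 with CD1530 (2.75 ± 0.370 CPM). At D10 Tbx4 was back at 1.37 ± 0.193 and 1.14 ± 0.338 CPM, and neither condition was called against the 1.32 ± 0.390 CPM of PM. Tbx4 libraries at D8.5 were 2.40, 3.14 and 2.71 CPM with CD1530 and 2.17, 1.78 and 1.75 CPM with AGN 193109 (log2 fold change 0.51 ± 0.19, adjusted p = 0.0317), but the call was lost under DESeq2 and without any of CD1530 replicates 2 and 3 or AGN 193109 replicates 2 and 3 (adjusted p up to 0.164). Tbx20 means were 0.805 ± 0.292 CPM in PM and between 0.561 and 2.21 CPM in all groups. At D7.5 the CD1530 libraries held 13, 10 and 14 counts of Tbx20 and the AGN 193109 libraries 27, 35 and 21 (0.593 ± 0.123 against 1.38 ± 0.309 CPM, log2 fold change -1.23 ± 0.32, adjusted p = 0.003). The Tbx20 difference was -0.75 ± 0.27 at D8.5 (adjusted p = 0.0232), where it was not called without CD1530 replicate 3 or AGN 193109 replicate 2 or 3 (adjusted p up to 0.105), and -0.24 ± 0.25 at D10, where the libraries overlapped (1.86 ± 0.231 and 2.21 ± 0.625 CPM). Against PM, Tbx20 was higher at D10 in both conditions (1.22 ± 0.29 and 1.47 ± 0.29).

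Hand2, the lateral plate and posterior limb factor, rose at D10 with CD1530. PM libraries held 5, 6 and 5 counts, or 0.264 ± 0.0225 CPM. With CD1530 the means were 0.358, 0.568, 0.835 and 0.728 CPM from D6.25 to D8.5 and 2.37 ± 0.100 CPM at D10, from libraries of 45, 43 and 44 counts. With AGN 193109 they were 0.615, 0.582, 0.670 and 0.359 CPM and then 0.389 ± 0.285 CPM, from 11, 6 and 2 counts. The CD1530 libraries were alike and all above the AGN 193109 libraries, which spread widely. The log2 fold change at D10 was 2.60 ± 0.38 (adjusted p = 1.87e-07), with 3.275 without AGN 193109 replicate 1 and 2.17 without AGN 193109 replicate 3, and the step from D8.5 to D10 with CD1530 was 1.70 ± 0.32 (adjusted p = 2.11e-05). At D8.5 the difference between the conditions was 1.15 ± 0.44 (adjusted p = 0.0342), and leaving out any CD1530 library or AGN 193109 replicate 1 or 2 of that day ended the call (adjusted p up to 0.266). With AGN 193109 at D6.25 Hand2 was called higher than in PM (1.21 ± 0.48, adjusted p = 0.0258), but not without any of the PM libraries or without AGN 193109 replicate 1 (adjusted p up to 0.111).

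Hand1, the other lateral plate factor, was called between the conditions at D10 only. PM libraries held 8, 8 and 7 counts (0.379 ± 0.00314 CPM). Group means until D8.5 were 0.428 to 0.845 CPM with CD1530 and 0.634 to 0.743 CPM with AGN 193109, and none of these days was called between the conditions. At D8.5 all CD1530 libraries lay below all AGN 193109 libraries (adjusted p = 0.309). At D10 the libraries held 14, 18 and 22 counts with CD1530 (0.978 ± 0.265 CPM) and 2, 2 and 3 counts with AGN 193109 (0.141 ± 0.0321 CPM). The fitted log2 fold change was 2.73 ± 0.51 (adjusted p = 1.89e-05), which is no exact fold at these counts. With 3 counts per AGN 193109 library at D10 taken as the floor, the CD1530 mean was 5.37-fold above it. The AGN 193109 mean of D8.5 was 3.48-fold above the same floor (D10 against D8.5, adjusted p = 0.000823). These folds use the group mean and leave out its spread. From D8.5 to D10 with CD1530 the log2 fold change was 1.17 ± 0.39 (adjusted p = 0.00988), a call that was lost without CD1530 replicate 3 at D10 (adjusted p = 0.0602). Beside the Hand genes and Tbx20, the summed level of 9 of 10 listed heart muscle genes was 28.5 to 31.5 CPM with CD1530 and 38.3 to 41.4 CPM with AGN 193109 at D10, most of it Mef2c at 23.0 and 30.5 CPM, while Myh6 stood at 0.452 and 0.382 CPM and Myh7 at 0.109 and 0.243 CPM. Of these 9 heart genes, 1 was called higher with CD1530 at D10 and 3 lower (22.7% and 24.0% of all genes). The higher gene was Nkx2-5, an early heart factor. Nkx2-5 stood at 0.922 ± 0.298 CPM with CD1530 against AGN 193109 libraries of at most 1 count. Its CD1530 mean was 5.06-fold above the floor of 3 counts. Of 8 neural crest and sympathetic genes, 4 were analysed here, with sums of 8.03 to 9.30 and 4.57 to 6.08 CPM. The part of such cells in the Hand levels was not tested.

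Whether the difference between CD1530 and AGN 193109 changed over the 5 days was tested as an interaction, which was called for 48.8% of all genes. It was called for 6 of the 9 genes: Tbx3 (adjusted p = 4.73e-18), Tbx2 (3.39e-12), Tbx1 (6.97e-11), Hand2 (5.01e-05), Hand1 (0.00018) and Tbx18 (0.000685). Tbx20 (adjusted p = 0.184), Tbx4 (0.438) and Tbx15 (0.578) were not called. The 6 calls held without each of the 30 libraries in turn.

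The comparisons with PM and over the last step describe each trajectory, and those with PM share its 3 libraries. At D6.25, 3 genes were higher (Tbx1, Tbx18, Hand1) and 1 lower (Tbx3) with CD1530, where 34.5% and 33.3% of all genes were called. With AGN 193109, 5 were higher (those 3 with Tbx15 and Hand2) and 1 lower (Tbx3), beside 35.0% and 33.1%. Both calls of Hand1 at D6.25 were fragile: with CD1530 (1.14 ± 0.39, adjusted p = 0.0089) the call was lost without replicate 2 (adjusted p = 0.129), and with AGN 193109 (0.93 ± 0.40, adjusted p = 0.0394) it was lost under DESeq2, without any PM library and without replicate 1 (adjusted p up to 0.36). At D10, 7 genes were higher than in PM with CD1530 (43.3% of all genes) and 1 lower (39.9%). With AGN 193109, 5 were higher (41.6%) and 2 lower (40.4%), Tbx3 and Hand1. The Hand1 mean of PM was 2.08-fold above the floor of 3 counts (log2 fold change -1.38 ± 0.61, adjusted p = 0.0348). This Hand1 call was lost without any of the PM libraries or without AGN 193109 replicate 1 or 2 (adjusted p up to 0.0868). Tbx3 was the gene that fell in both, by 1.54 ± 0.06 and 3.19 ± 0.08 on the log2 scale. From D8.5 to D10 with CD1530, 5 rose (27.4%), Tbx2, Tbx18, Tbx20, Hand1 and Hand2, and 2 fell (29.9%), Tbx1 and Tbx4. Tbx20 there (0.67 ± 0.28, adjusted p = 0.0392) was not called under library size scaling or without replicate 1 or 3 of D8.5 or of D10 (adjusted p up to 0.142). With AGN 193109, 1 rose (29.9%), Tbx18, and 4 fell (29.5%), Tbx1, Tbx2, Tbx4 and Hand1. The opposite steps of Tbx2 and Hand1 lie in these counts.

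Levels of different genes can be compared only per length. For this, CPM was divided by the kb covered by all annotated exons of a gene, which can exceed the length of the transcript present. In PM, Tbx3 stood first at 12.8 ± 0.570 CPM per kb, and Tbx15 followed at 1.38 ± 0.162. Tbx1 at 0.402 ± 0.0299, Tbx4 at 0.388 ± 0.115 and Tbx18 at 0.371 ± 0.130 CPM per kb did not differ beyond their SDs, and Tbx2 at 0.279 ± 0.0309 lay within the SD of Tbx18. Hand1, Hand2 and Tbx20 closed the order at 0.190, 0.112 and 0.0671 CPM per kb. At D10 with CD1530 Tbx2 led with 30.6 ± 0.901 CPM per kb, before Tbx3 at 4.41 ± 0.172, Tbx15 at 2.61 ± 0.434 and Tbx18 at 1.76 ± 0.150. Hand2 at 1.01 ± 0.0426 and Tbx1 at 0.929 ± 0.110 CPM per kb did not differ beyond their SDs, and Hand1, Tbx4 and Tbx20 came last at 0.490, 0.404 and 0.155. At D10 with AGN 193109 Tbx2 also led, at 7.69 ± 0.929 CPM per kb. Tbx15 at 2.74 ± 0.276, Tbx18 at 2.62 ± 0.350 and Tbx1 at 2.25 ± 0.0735 CPM per kb lay close together, above Tbx3 at 1.41 ± 0.123, and Tbx4, Tbx20, Hand2 and Hand1 stood at 0.335, 0.184, 0.166 and 0.0707.

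**Figure D3:**
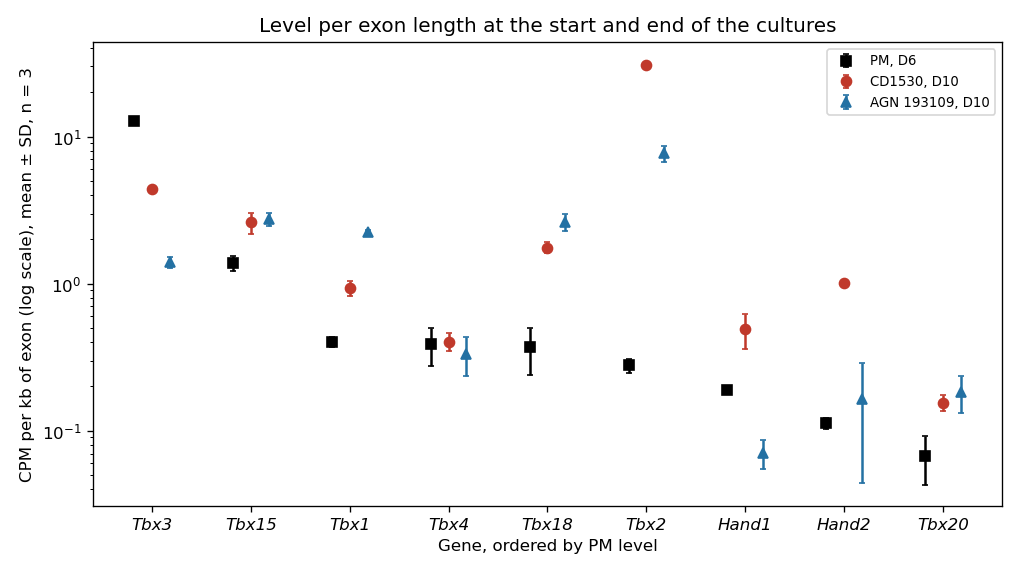
CPM per kb of exon (log axis, mean ± SD, n = 3) of each gene in PM at D6 and in both conditions at D10, ordered by the PM level. Tbx3 led in PM with 12.8 CPM per kb and Tbx2 led at D10 with 30.6 (CD1530) and 7.69 (AGN 193109).

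For the 5 genes that reached 5 CPM, the genes of most similar course were sought by Pearson's r over the 11 group means of log2(CPM + 1) among 13360 genes. Neighbouring days share a culture course, so that r is a description only. For Tbx2 they were Meioc (0.985), Abcc9 (0.977) and Agfg2 (0.976), for Tbx3 Mobp (0.967), Tiparp (0.967) and Tsen54 (0.961), and for Tbx1 Traf2 (0.914), Pou3f1 (0.913) and Map9 (0.896). For Tbx15 they were Acpp (0.972), Tpgs2 (0.969) and Hlx (0.961), and for Tbx18 Pam (0.952), Pdyn (0.940) and Crry-ps (0.935). Among the members themselves, Tbx2 and Tbx15 had an r of 0.835 and Tbx2 and Tbx3 an r of -0.556.

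Related genes give the setting of these differences at D10, where 22.7% of all genes were called higher and 24.0% lower with CD1530. Of the other T-box family, 4 of 9 listed genes were analysed here, and 2 were lower with CD1530 and none higher (median log2 fold change -1.18, beside -0.02 over all genes). T, the Brachyury gene of the primitive streak, stood at 0.503 ± 0.140 CPM against 27.1 ± 0.542 CPM, and Eomes at 2.66 ± 0.446 against 10.95 ± 0.574 CPM. T and Eomes differed by a log2 fold change of -5.74 ± 0.14 and -2.03 ± 0.12, while Tbx6 and Mga were not called. Of 16 limb bud and lateral plate regulators, 9 were higher with CD1530 and 5 lower (median 0.52). Their summed level was the lower with CD1530, at 636 to 642 CPM against 735 to 774 CPM with AGN 193109. The limb mesenchyme gene Prrx1 stood at 71.5 ± 2.47 CPM with CD1530 and 161 ± 6.68 CPM with AGN 193109. Meis2, a proximal limb factor and known retinoid target, was higher by 3.43 ± 0.09 on the log2 scale, Lmx1b, the dorsal limb factor, by 1.82 ± 0.19, and Gata6 by 1.32 ± 0.09, while Bmp4 was lower (-1.36 ± 0.05). Of 9 genes known as targets of T-box or Hand factors, 3 were higher and 5 lower (median -0.44). Cdkn2a, which encodes cell cycle inhibitors, stood at 245 ± 8.69 CPM with CD1530 and 114 ± 0.209 CPM with AGN 193109 (log2 fold change 1.105 ± 0.06), and Cdh1, the epithelial cadherin, at 78.5 ± 1.06 and 173 ± 2.17 CPM (-1.14 ± 0.04). Fgf8 was lower (-4.31 ± 0.25). Of 7 Twist family and E protein genes, the families of the Hand factors and their partners, 3 were higher and 2 lower (median 0.05), with Tcf15 at 0.85 ± 0.13, Scx at -0.51 ± 0.04, Twist2 at -0.36 ± 0.13 and Tcf4 at 0.25 ± 0.04.

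**Figure D4:**
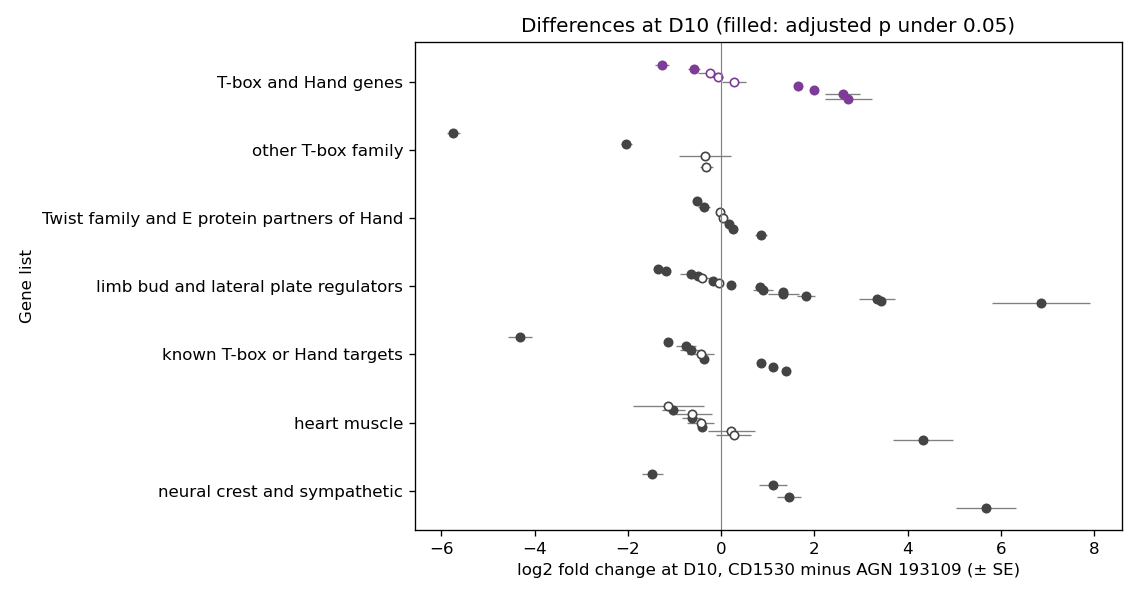
Log2 fold change of CD1530 minus AGN 193109 at D10 (± SE) for the 9 T-box and Hand genes and for 6 lists, 1 point per gene, filled where the adjusted p was under 0.05. The 9 genes lie between -1.27 and 2.73, the other T-box family reaches -5.74 (T), and the points with the highest values in the limb, heart and neural crest lists are genes whose AGN 193109 libraries held at most 3 counts each, so that their values are no exact folds.

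The remaining lists were taken as marks of cell identity at D10, against the same shares of all genes (22.7% higher, 24.0% lower). Of 9 heart muscle genes 1, Nkx2-5, was higher with CD1530 and 3 lower (median -0.44), among the latter Mef2c at -0.40 ± 0.08. Of 4 neural crest and sympathetic genes 3 were higher and 1 lower (median 1.28). Of 5 genes listed for surface epithelium 2 were higher and 3 lower (median -1.11), with Grhl2 at -1.95 ± 0.13, Epcam at -1.11 ± 0.04, Krt18 at 0.78 ± 0.05 and Krt8 at 0.38 ± 0.05. Of 9 paraxial mesoderm and somite genes 3 were higher and 3 lower (median -0.34), with the sclerotome genes Pax1 and Pax9 at -1.13 ± 0.11 and -1.35 ± 0.11 and Meox2 at -1.86 ± 0.15. Of 8 tendon and cartilage genes 6 were lower with CD1530 and none higher (median -1.04), led by Acan, Matn4, Col2a1 and Sox9 at -5.53, -4.26, -4.10 and -1.05. All 6 retinoid targets were higher (median 5.28), among them Dhrs3 at 4.94 ± 0.07, Cyp26a1 at 6.11 ± 0.08 and Rarb at 5.63 ± 0.14, and Stra8 at 201 CPM against libraries of at most 3 counts. With genes at the floor set to their bounds, the medians of all 10 lists were the same. The part of any of these cell identities in the levels of the T-box and Hand genes was not tested.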

How the data were processed

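RNA sequencing libraries of 33 samples in 11 groups of 3 were analysed, grouped by their labels. The authors aligned reads to GRCm38 with STAR and assigned them to genes with featureCounts, and deposited raw counts per gene. Which annotation and strand setting were used, and how multiply aligned reads were treated, is not given in the sources used here. By the methods of the study the 3 libraries of a group are biological replicates. Whether these were separate differentiations, cell lines or wells is not stated. Each p-value sets a difference against a spread between replicates that was estimated over all 33 libraries.

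The tests used edgeR 4.0.16 under R 4.3.3. All 33 libraries entered 1 fit with a mean per group, TMM scaling, the edgeR filter on low counts (17120 of 17120 genes kept) and a robust quasi-likelihood fit without covariates. Benjamini-Hochberg adjustment ran over all genes within each of 11 contrasts and the interaction of condition and time (4 degrees of freedom). Calls required an adjusted p under 0.05. The biological coefficient of variation was 4.68%, and total counts of 17.1 M to 38.1 M limit the precision of genes near 1 CPM. Groups of at most 3 counts in each library were taken as at the floor, which covers counting error only, since PCR copies are not independent molecules. Bounds are the mean of the other group over this floor, and leave out the spread of that group. Replicate columns were not duplicates (chi-square per gene at least 1.59). Samples with the same replicate number did not deviate together (correlations from -0.15 to 0.12), so that the numbers were not taken as pairs.

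The members and the lists (other T-box family, Twist family and E proteins, limb and lateral plate, known targets, heart muscle, neural crest, surface epithelium, paraxial mesoderm, tendon and cartilage, retinoid targets) were chosen with earlier results of these data known. Named genes were all members, the 3 most similar genes over the 11 groups for members reaching 5 CPM, and from each list at most 4 called genes of at least 50 mean counts with the largest fold changes at D10, besides Rarb, Cyp26a1, Scx, Col2a1, Tbx6 and Msgn1. Neighbours and the other genes named in lists were chosen after their values were seen. Gene positions and exon lengths are from GENCODE M21 on GRCm38, and promoter windows from RefSeq. Tried as alternatives were DESeq2 1.42.0 and its size factors, library size scaling, no filter, a fit without the robust option, a minimum of 1 CPM in 3 libraries, a replicate block, the compared groups only, a minimum absolute log2 fold change of 1, and each library left out. The result of 1 gene that the rule names is not reported here.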

Additional observations from a re-analysis of the deposited data

Results flagged for a closer look

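The difference between CD1530 and AGN 193109 changed over the 5 days for 6 genes by the interaction test of edgeR, with adjusted p-values of 6.97e-11 for Tbx1, 3.39e-12 for Tbx2, 4.73e-18 for Tbx3, 0.000685 for Tbx18, 0.00018 for Hand1 and 5.01e-05 for Hand2. The same test called 48.8% of all genes. Tbx1 is the gene of the 6 that was called in opposite directions on different days, at a log2 fold change of 0.51 on D7.5 and -1.27 on D10. The difference of Hand1 was called at D10 and on none of the 4 earlier days. Groups of 3 libraries were not searched for outlying values of single genes.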

How the results depend on the processing

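Of 1718 recomputed values of single genes, 1645 kept their side of the threshold and, where they had one, their direction. Of the rest, 39 were no longer called, 7 became called and 27 turned in direction, none of them for a gene called in the first place. The interaction gave 38 of these values per gene, which have no direction and all stayed on their side of the threshold. Of 203 recomputed counts of called genes, 195 stayed within 1.5 times. Requiring an absolute log2 fold change of 1 left 3 calls at D8.5, 2 at D7.5 and 0 at D6.75 between the conditions, 3 for D10 against D8.5 with CD1530, 3 for D6.25 against PM with AGN 193109 and 2 for D10 against D8.5 with AGN 193109. The share of all genes called at this threshold was not counted, so that these counts have no background beside them. Leaving out 1 library gave 4 to 6 calls at D8.5, the 4 without CD1530 replicate 3 or AGN 193109 replicate 2. Over all genes, these fits called 5909 to 6376 of 17120 at D8.5. The fit with a replicate block kept the counts of called genes in all 12 comparisons (6 at D10, 7 at D8.5, 4 at D7.5, 2 at D6.75). Over all genes it called 7914, 6789, 4536 and 3009 of 17120 on those days. Of 33 samples, 5 correlated best with their own number. Under library size scaling Tbx4 turned to 0.038 at D6.25 and -0.048 at D10 against PM with CD1530. When 1 library was left out, values that turned, on the log2 scale, ranged as follows. At D6.25 Tbx3 ranged from -0.039 to 0.018, Tbx18 from -0.055 to 0.11 and Hand1 from -0.18 to 0.66, at D6.75 Tbx1 from -0.011 to 0.16 and Hand2 from -0.59 to 0.43, and at D10 Tbx15 from -0.21 to 0.021. Against PM with CD1530, Tbx4 ranged from -0.24 to 0.23 and Tbx20 from -0.073 to 0.47 at D6.25, and Tbx4 from -0.16 to 0.31 at D10. With AGN 193109, Tbx4 ranged from -0.39 to 0.077 at D6.25 and from -0.46 to 0.031 at D10, and Hand2 from -0.14 to 0.97 at D10. From D8.5 to D10 with AGN 193109, Tbx20 ranged from -0.044 to 0.36 and Hand2 from -0.43 to 0.73. The cause was not tested. Depth limits Hand1, Hand2, Tbx4 and Tbx20, which had means under 3 CPM in every group.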
